A study of Mus musculus with 12 samples.

Results

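The genes described here encode the oxidative phosphorylation machinery of the mitochondrion, measured as messenger RNA in mouse splenic natural killer (NK) cells, innate lymphocytes with cytotoxic and cytokine-secreting functions. They were chosen by symbol, taking names that begin with Ndufa, Ndufb, Ndufc, Ndufs, Ndufv, Uqcr, Cox4 to Cox8, Atp5, mt-Nd, mt-Co, mt-Cytb or mt-Atp together with Sdha, Sdhb, Sdhc and Sdhd, and leaving out pseudogenes and the Ndufaf assembly factors. A member also needed at least 100 counts summed over the 12 libraries, which 92 of the 50643 listed genes had, 79 of them encoded in the nucleus and 13 in mitochondrial DNA. The 6 genes with a fitting name below that minimum were Cox4i2 with 61 counts, Cox7a1 with 50, Ndufa4l2 with 21 and Cox7b2, Cox8b and Cox8c with 0. Just above it lay Cox6a2 with 675 counts, Cox6b2 with 993 and Atp5s with 1233. All 92 members passed the filter on low counts that left 16694 genes for testing.

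Electrons from NADH enter the respiratory chain at complex I and those from succinate at complex II. They pass through complex III and cytochrome c to complex IV, which reduces oxygen, and the proton gradient built on the way drives ATP synthase, complex V. Complexes I, III, IV and V combine subunits from nuclear genes with a few hydrophobic subunits made inside the mitochondrion from its own DNA, whereas complex II is wholly nuclear-encoded. Activated NK cells are known to draw on both glycolysis and oxidative phosphorylation for growth and effector functions. The nuclear members comprised 37 genes named for complex I, 4 for complex II, 8 for complex III, 13 for complex IV and 17 for complex V, and the mitochondrial ones 7 for complex I, 1 for complex III, 3 for complex IV and 2 for complex V. Assignment followed the symbol: Ndufa4 is counted with complex I although its protein is now placed in complex IV, Cox7a2l encodes a factor that joins complexes III and IV, and Atp5s and Atp5sl carry the name without being core subunits of ATP synthase.

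The 12 libraries formed 4 groups of 3, all of strain C57BL/6: Mirc11-/- cells (here knockout) after a challenge with the bacterium Listeria, unchallenged knockout cells, challenged wild-type cells and unchallenged wild-type cells. Mirc11 is a cluster of microRNA genes, which the series title ties to inflammatory signalling in NK cells. The labels state that NK cells were isolated by negative selection, which depletes other cells and leaves NK cells untouched. The sources used here state neither dose, route nor length of the Listeria challenge nor the age of the mice, and the labels do not say that each library came from a separate animal, so p-values may measure technical spread only.

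Libraries held 17624530 to 23665679 counts, and levels are given in CPM, counts relative to library sizes scaled by the trimmed mean of M-values. The 8 NK markers (Ncr1, Klrb1c, Klrk1, Klre1, Eomes, Nkg7, Gzma, Prf1) were detected in every group, with summed levels of 4854 to 5393 CPM in challenged and 6716 to 6818 CPM in unchallenged knockout libraries, and of 3992 to 4097 CPM in challenged and 6215 to 7155 CPM in unchallenged wild-type libraries. After the challenge 6 of these 8 fell and 1 rose in wild-type cells, with a median log2 fold change of -1.48. In knockout cells 7 fell and 0 rose, with a median of -0.43. Compared with challenged wild-type cells, 5 were higher and 1 lower in challenged knockout cells. Markers of other cells were present as well and moved with the groups. Summed over 9 erythroid markers the level was 19340 to 24910 CPM in challenged and 36370 to 41060 CPM in unchallenged knockout, against 1817 to 2425 CPM in challenged and 11430 to 13280 CPM in unchallenged wild-type libraries. The 10 neutrophil markers summed to 732 to 1107 CPM and 461 to 478 CPM in challenged and unchallenged knockout, and to 1528 to 1796 CPM and 60 to 61.5 CPM in challenged and unchallenged wild-type. The 10 macrophage and monocyte markers summed to 980 to 1285 CPM and 793 to 836 CPM in challenged and unchallenged knockout, and to 1597 to 1795 CPM and 612 to 654 CPM in challenged and unchallenged wild-type. The 7 T cell markers summed to 217 to 253 CPM and 148 to 163 CPM in challenged and unchallenged knockout, and to 149.7 to 152 CPM and 209 to 235 CPM in challenged and unchallenged wild-type, so that all 7 rose in knockout and all 7 fell in wild-type cells. The 5 platelet markers summed to 185 to 235 CPM and 163 to 181 CPM in challenged and unchallenged knockout, and to 157 to 186 CPM and 342 to 456.5 CPM in challenged and unchallenged wild-type, where all 5 fell. The 7 B cell markers summed to 1297 to 1365 CPM and 954 to 975 CPM in challenged and unchallenged knockout, and to 1529 to 1610 CPM and 1256 to 1396 CPM in challenged and unchallenged wild-type. No marker of these lists was at 0 in a whole group, and their part in any result given here was not tested. In such bulk samples, fewer cells of a type and less RNA per cell cannot be told apart.

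In wild-type cells, nuclear genes of oxidative phosphorylation were mostly higher after the challenge. With edgeR's quasi-likelihood test, 61 of the 79 nuclear members rose at an adjusted p below 0.05, 5 fell and 13 did not pass, whereas 32.4% of all tested genes rose and 30.9% fell, 63.4% in all. The median log2 fold change of the nuclear members was 0.40, against -0.01 over all tested genes. Their summed level was 6628, 6982 and 7477 CPM in the challenged libraries and 5261, 5412 and 5509 CPM in the unchallenged ones. Every challenged library thus exceeded every unchallenged one, and the ratio of means was 1.3. By complex the ratio of summed levels was 1.24 for complex I, 1.19 for complex II, 1.32 for complex III, 1.33 for complex IV and 1.36 for complex V.

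**Figure D1:**
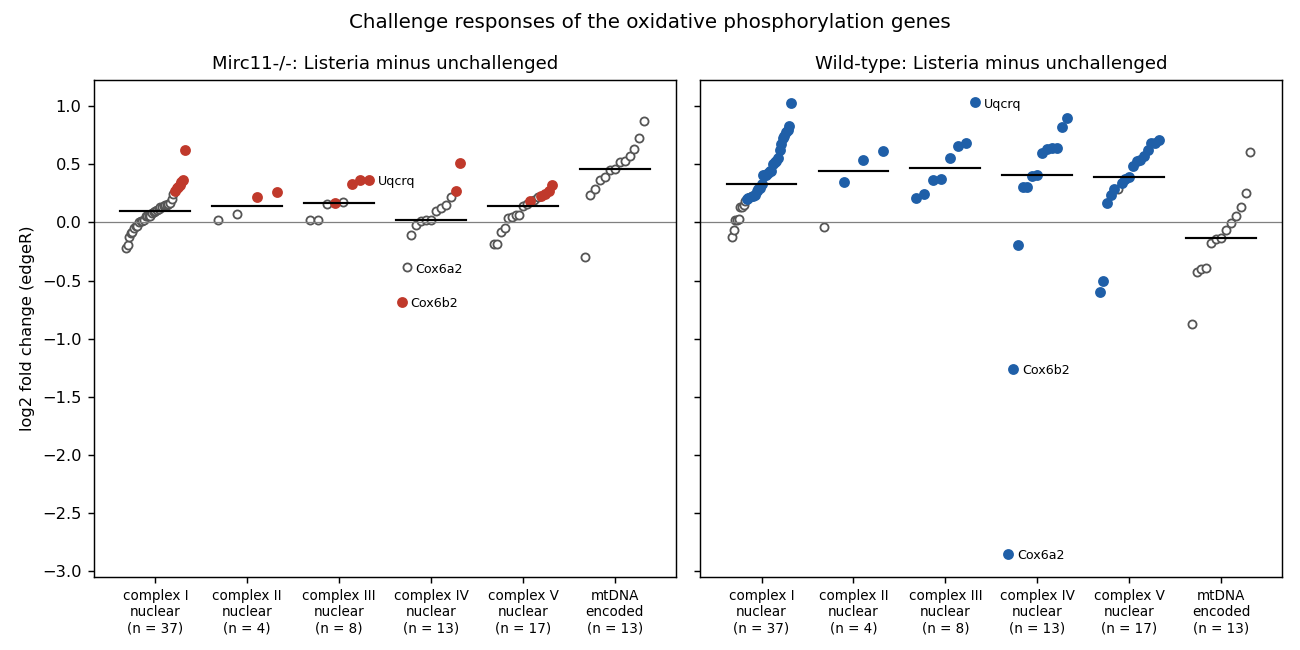
Each point is a member, with its log2 fold change (challenged minus unchallenged, edgeR) on the vertical axis, grouped by complex for nuclear genes and pooled for the 13 genes of mitochondrial DNA; filled points passed an adjusted p below 0.05 and bars are medians. In knockout cells (left) 20 nuclear members rose and 1 fell, in wild-type cells (right) 61 rose and 5 fell, and no mitochondrial point is filled in either panel.

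These nuclear members have short transcripts, and short transcripts in general were higher in the challenged wild-type libraries. The median transcript length of the nuclear members was 865 bases (371 to 4715), against 2730 bases over the tested genes, and 45 of the 79 were under 1 kb. Among the 784 other genes under 1 kb with more than 5 CPM, 55.9% rose and 14.7% fell after the challenge in wild-type cells, with a median log2 fold change of 0.38, while the 3466 other genes over 4 kb had a median of -0.12. Of the 45 members under 1 kb, 77.8% rose, with a median of 0.40, and of the 25 members between 1 and 2 kb, 84% rose, against 46% of the 2271 other genes of that length. When each library's trend with transcript length was removed, an alternative chosen after seeing the data, 35 nuclear members rose and 13 fell. Their median was then 0.13, and complex IV stood at a median of 0.0004. Over all 16694 tested genes that setting gave 5170 higher and 5282 lower. Whether the trend reflects the RNA or library preparation, or short genes changing in the cells, was not tested.

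**Figure D2:**
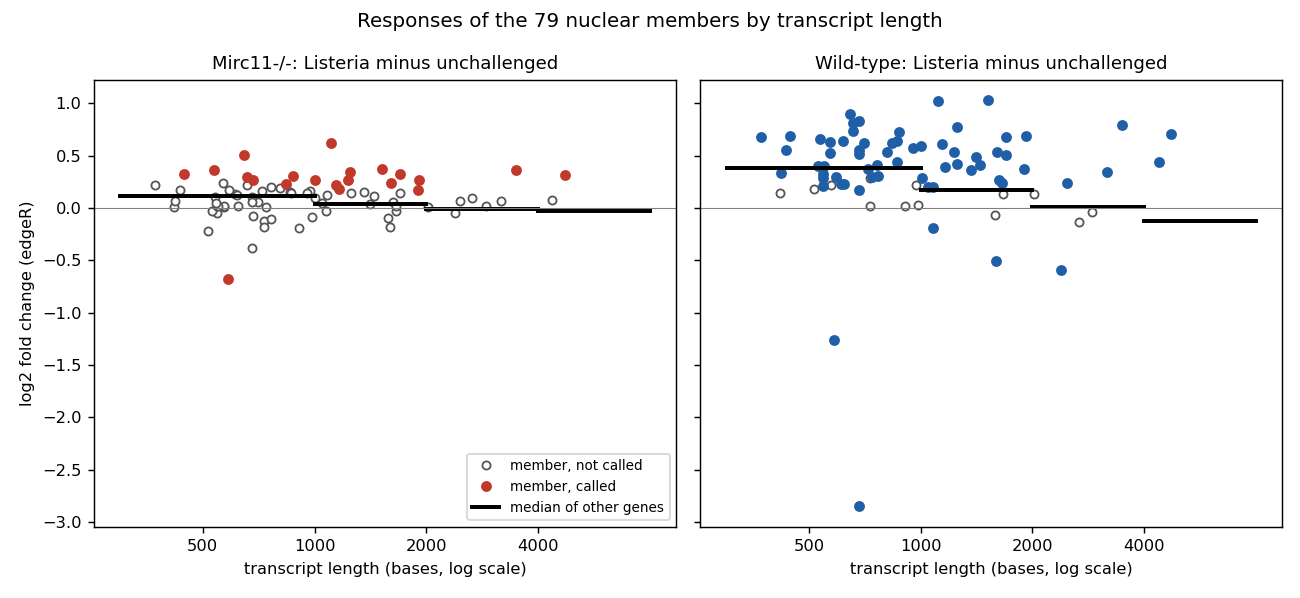
The log2 fold change of each of the 79 nuclear members (vertical axis) is set against its transcript length in bases (log axis), in knockout cells on the left and wild-type cells on the right; filled points passed the test and black bars are medians of all other genes above 5 CPM in 4 length classes. In wild-type cells the bars step down from 0.38 under 1 kb to -0.12 over 4 kb, and in knockout cells from 0.11 to -0.03.

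A set of 37 of the 66 wild-type calls, 33 up and 4 down, passed in the same direction under every alternative tried, the length correction and each left-out library included. The values that follow favour these members. In complex I they were Ndufa5, Ndufa9, Ndufa12, Ndufa13, Ndufab1, Ndufb6, Ndufb8, Ndufb9, Ndufc1, Ndufc2, Ndufs4, Ndufs5 and Ndufv2, all of them higher.

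Complex I, the NADH dehydrogenase, had 26 members that rose after the challenge in wild-type cells, none that fell and 11 that did not pass. Ndufa12, an accessory subunit of the arm that binds NADH, had 36.7, 29.0 and 33.1 CPM in challenged and 15.6, 15.8 and 17.2 CPM in unchallenged wild-type libraries. The groups lay far apart, a rise of 1.02 ± 0.10 (log2, SE; edgeR adjusted p = 3.7e-07). Ndufab1, the mitochondrial acyl carrier protein that also serves lipoic acid synthesis, had 43.2, 46.6 and 43.6 CPM in challenged and 26.2, 25.2 and 25.4 CPM in unchallenged wild-type libraries, a rise of 0.80 ± 0.08 (edgeR adjusted p = 7.1e-07). Ndufs5, an accessory subunit of the membrane arm, had 26.3, 33.4 and 34.6 CPM in challenged and 18.6, 17.4 and 17.2 CPM in unchallenged wild-type libraries, again without overlap (0.83 ± 0.12, edgeR adjusted p = 2.5e-05). Among the core subunits, which carry the flavin, the iron-sulphur clusters and the quinone site, Ndufv2 rose by 0.68, Ndufs8 by 0.28 and Ndufs3 by 0.21 on the log2 scale. Their companions Ndufv1 (0.13), Ndufs7 (0.03) and Ndufs1 (-0.13) did not pass the test, and Ndufs1, the largest iron-sulphur subunit, was slightly lower in each challenged library, at 75.7, 69.6 and 75.7 CPM, than in the unchallenged wild-type ones at 82.4, 79.3 and 79.9 CPM.

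Complex II, which also runs in the tricarboxylic acid cycle, was uneven. Sdhb, its iron-sulphur subunit, had 100.5, 99.1 and 109 CPM in challenged and 66.1, 67.1 and 68.9 CPM in unchallenged wild-type libraries, a rise of 0.61 ± 0.06 (edgeR adjusted p = 3.8e-07). The membrane anchors Sdhd and Sdhc rose by 0.53 and 0.34 on the log2 scale. Sdha, the flavoprotein that oxidises succinate, had 196, 198 and 207 CPM in challenged and 211, 200.5 and 207 CPM in unchallenged wild-type libraries, and these overlapped (-0.04 ± 0.05, edgeR adjusted p = 0.50).

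All 8 nuclear members of complex III rose after the challenge in wild-type cells, by 0.21 to 1.03. Uqcrq, a small subunit next to cytochrome b, had 53.8, 48.0 and 55.1 CPM in challenged and 22.5, 25.1 and 29.1 CPM in unchallenged wild-type libraries, with Ndufa12 the largest rise among the members (1.03 ± 0.10, edgeR adjusted p = 2.7e-07). The Rieske iron-sulphur protein Uqcrfs1 rose by 0.36, and the core proteins Uqcrc2 and Uqcrc1 by 0.38 and 0.24. The lowest rise was that of the hinge protein Uqcrh, and its sign turned when the length trend was removed (-0.20).

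In complex IV, cytochrome c oxidase, 10 members rose and 3 fell. Cox5a, a nuclear subunit of the matrix side, had 99, 104 and 113.5 CPM in challenged and 58.0, 53.7 and 58.0 CPM in unchallenged wild-type libraries, with wide separation (0.90 ± 0.07, edgeR adjusted p = 1.6e-08). Cox7a2, the form of subunit VIIa found in most tissues, had 70.8, 76.4 and 88.9 CPM in challenged and 43.6, 43.0 and 47.5 CPM in unchallenged wild-type libraries (0.82 ± 0.09, edgeR adjusted p = 6.8e-07). Cox5b, Cox6b1 and Cox6a1 rose by 0.64, 0.64 and 0.63, all without overlap between the groups. Cox4i1, the form of subunit IV in most tissues, rose by 0.31 without overlap, and Cox8a by 0.40 with overlapping groups. The alternative isoforms Cox4i2 and Cox7a1 lay below the count minimum and Cox8b and Cox8c at 0.

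The 3 members of complex IV that fell were Cox6a2, Cox6b2 and Cox7a2l. Cox6a2, the isoform typical of heart and skeletal muscle, had 0.457, 0.514 and 0.422 CPM in challenged and 3.52, 3.23 and 3.40 CPM in unchallenged wild-type libraries. It was the member that fell most, by 2.85 ± 0.21 on the log2 scale (edgeR adjusted p = 1.3e-08). Its exons overlap those of Itgad on the opposite strand by 70 bases, the sources used here do not state whether counting used the strand, and Itgad fell by 2.62 in the same comparison, so the reads of the pair cannot be told apart there. Siglech, a marker of plasmacytoid dendritic cells chosen after its values were seen, fell by 3.81, and its part in the Cox6a2 result was not tested. Cox6b2, the testis form of subunit VIb, had 1.87, 1.91 and 2.07 CPM in challenged and 5.23, 4.28 and 4.5 CPM in unchallenged wild-type libraries, a fall of 1.26 ± 0.15 (edgeR adjusted p = 3.6e-06). Cox7a2l, the supercomplex factor, fell by 0.19 ± 0.05 (edgeR adjusted p = 0.0031), with little spread in either group: 154.5, 156 and 156 CPM in challenged against 174, 178 and 181 CPM in unchallenged wild-type libraries.

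**Figure D3:**
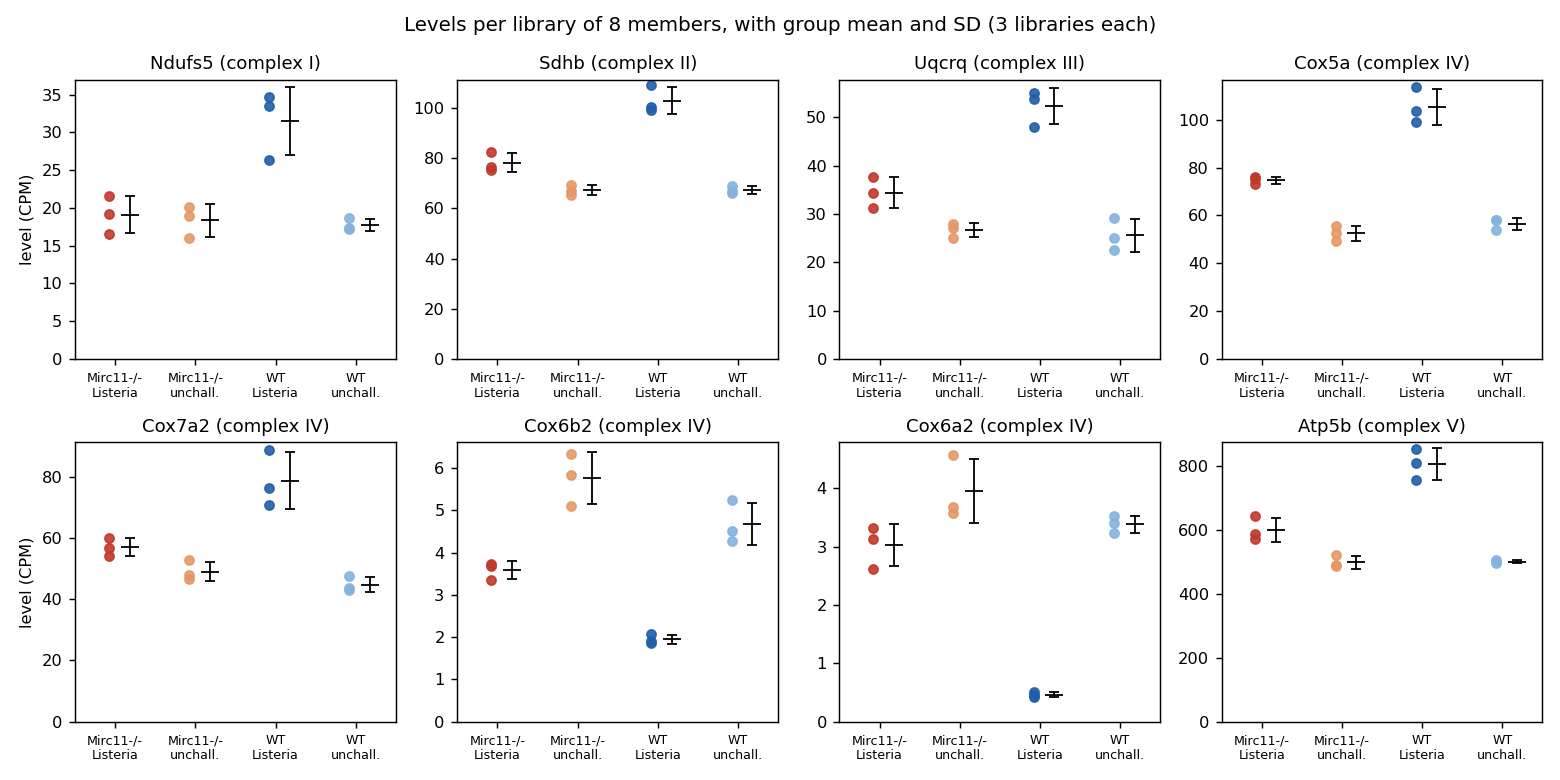
Levels in CPM (vertical axes, from 0) of 8 members in each library, with the group mean and SD beside the points; groups run from challenged knockout to unchallenged wild-type. Ndufs5, Sdhb, Uqcrq, Cox5a, Cox7a2 and Atp5b are highest in the 3 challenged wild-type libraries, where Cox6b2 (1.87 to 2.07 CPM) and Cox6a2 (0.422 to 0.514 CPM) are lowest.

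Complex V had 14 members that rose and 2 that fell. Atp5b, the catalytic beta subunit and the most abundant nuclear member per length, had 756, 809 and 854 CPM in challenged and 496, 506 and 503 CPM in unchallenged wild-type libraries (0.69 ± 0.06, edgeR adjusted p = 1.9e-07). The central stalk subunit Atp5c1 rose by 0.39 and the alpha subunit Atp5a1 by 0.24. Subunit c, whose ring turns with the proton flow, is made from 3 genes with the same mature protein: Atp5g1 rose by 0.71 and Atp5g3 by 0.37, while Atp5g2 did not pass the test (0.29). Of the Atp5g2 counts pooled with those of its near-identical copy Gm10175 on chromosome 7, 94.5% lay on the copy, so the level of Atp5g2 itself is uncertain. Atp5sl had 34.5, 34.2 and 40.4 CPM in challenged and 53.6, 54.8 and 56.5 CPM in unchallenged wild-type libraries, a fall of 0.60 ± 0.09 (edgeR adjusted p = 3.6e-05), and Atp5s fell by 0.50.

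Per length, in unchallenged wild-type cells, Atp5b stood at 262 CPM per kb, Atp5e at 213, Cox8a at 208 and Cox4i1 at 203, and these were the highest nuclear members. Sdha was at 71.1, Uqcrc1 at 77.2 and Ndufs1 at 30.3 CPM per kb, and the lowest were Ndufb2 at 3.32 and Atp5s at 3.47. The 3 subunit c genes Atp5g3, Atp5g2 and Atp5g1 stood at 160.5, 10 and 9.66 CPM per kb. The Atp5g2 value is that of its own row, which averaged 7.31 CPM, against 126.1 CPM with its copy Gm10175. Atp5g1 and Ndufb2 were divided by principal transcripts of 4715 and 4371 bases, and their places depend on that choice. The 3 genes can thus not be ranked by these values. By their own rows, 10 of the 13 mitochondrial genes lay above all nuclear members, with mt-Co1 at 5335 and mt-Cytb at 2036 CPM per kb the highest. The own rows of mt-Co3 (205), mt-Nd4l (188) and mt-Co2 (62 CPM per kb), which share reads with nuclear copies, lay among the nuclear members. With copies, mt-Co2, mt-Co3 and mt-Atp6 averaged 3082, 3109 and 2442 CPM in unchallenged wild-type libraries. Their own rows averaged 42.4, 160.5 and 378 CPM, so own rows do not rank the mitochondrial genes.

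In knockout cells the challenge moved fewer of these genes. Of the 79 nuclear members, 20 rose, 1 fell and 58 did not pass, when 15.6% of all tested genes rose and 11.5% fell, 27% in all, and the median log2 fold change was 0.11, or 0.07 without challenged knockout replicate 1. Without unchallenged knockout replicate 2, or without replicate 3, 11 rose. With upper-quartile scaling 13 rose and 1 fell, and over all genes that scaling gave 2263 higher and 2583 lower against 2596 higher and 1915 lower here. Summed over the nuclear members, the level was 6227, 5677 and 5814 CPM in challenged and 5339, 5425 and 5683 CPM in unchallenged knockout libraries. The groups overlapped, the lowest challenged library lying below the highest unchallenged one, and the ratio of means was 1.08. Among the 784 other genes under 1 kb, 29.6% rose in knockout cells, against 15.6% of the 45 members of that length. Between 1 and 2 kb 23.1% of the 2271 other genes rose, against 44% of the 25 members. With the length trend removed, 11 nuclear members rose and 7 fell, with a median of 0.01. Over all 16694 tested genes that setting gave 2441 higher and 2156 lower.

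Of the 21 knockout calls 8 passed under every alternative tried: Ndufa12, Ndufab1, Sdhd, Cox5a, Cox7b, Atp5b and Atp5f1 higher and Cox6b2 lower. Ndufa12 had 24.3, 21.0 and 26.2 CPM in challenged and 15, 15.4 and 16.1 CPM in unchallenged knockout libraries (0.62 ± 0.10, edgeR adjusted p = 0.00036), without overlap. Cox5a had 75.2, 75.9 and 73.0 CPM in challenged and 55.5, 52.8 and 49.3 CPM in unchallenged knockout libraries, a rise of 0.51 ± 0.07 (edgeR adjusted p = 5.3e-05). Cox6b2 had 3.74, 3.35 and 3.69 CPM in challenged and 5.10, 5.84 and 6.33 CPM in unchallenged knockout libraries and fell by 0.68 ± 0.14 (edgeR adjusted p = 0.0021). Cox6a2 had 3.32, 2.63 and 3.14 CPM in challenged and 3.59, 4.58 and 3.68 CPM in unchallenged knockout libraries and did not pass the test (-0.39 ± 0.16, edgeR adjusted p = 0.093). By complex, 7 members of complex I, 2 of complex II, 4 of complex III, 2 of complex IV and 5 of complex V rose.

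**Figure D4:**
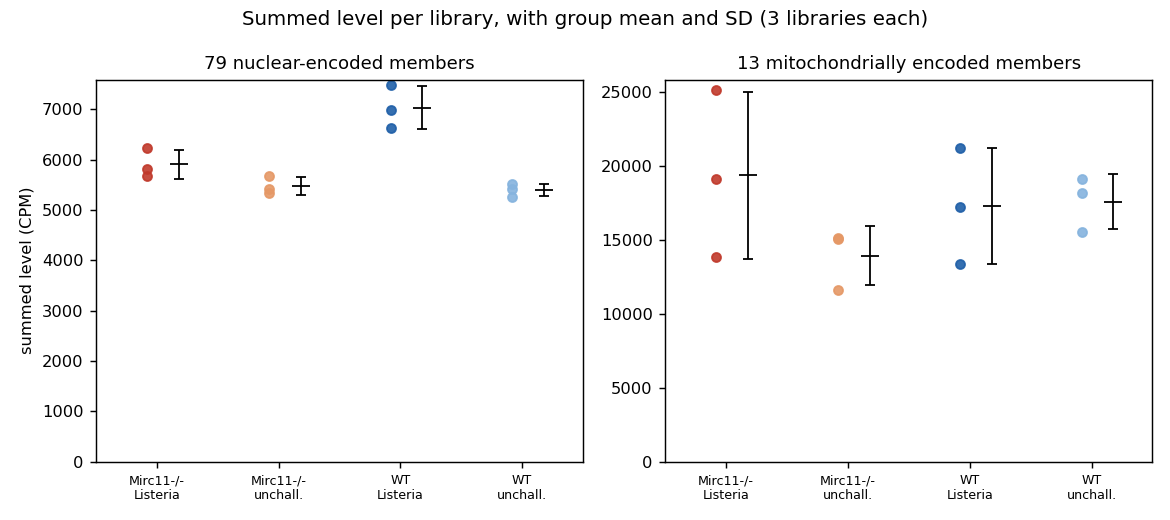
Summed levels in CPM (vertical axes, from 0) of the 79 nuclear members (left) and the 13 mitochondrial members (right) in each library, with group mean and SD. The nuclear sums of the 3 challenged wild-type libraries, 6628 to 7477 CPM, lie above all others, while the mitochondrial sums spread within groups, from 13861 to 25176 CPM in challenged knockout libraries.

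Between the genotypes, no member passed the test in the main fit without the challenge. None of the 92 was called by edgeR when 6.64% of all tested genes were higher and 5.07% lower in unchallenged knockout cells, 11.7% in all, DESeq2 also called 0, and 2 members, Ndufb9 and Cox6b2, had an unadjusted p under 0.05. The median log2 difference of the nuclear members was 0.03. Their summed level was 5339, 5425 and 5683 CPM in unchallenged knockout and 5261, 5412 and 5509 CPM in unchallenged wild-type libraries, which overlapped. A fit to these 2 groups alone called 1 nuclear member higher and 1 mitochondrial member lower.

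After the challenge, 50 of the 79 nuclear members were lower in knockout than in wild-type cells and 4 were higher, when 25.9% of all tested genes were lower and 22.7% higher, 48.7% in all. With upper-quartile scaling 34 nuclear members were lower and 5 higher, and over all genes 3520 were lower and 4606 higher against 4332 lower and 3792 higher here. Without challenged wild-type replicate 3, 32 were lower. The median log2 difference was -0.27, against -0.002 over all tested genes. Summed nuclear levels were 6227, 5677 and 5814 CPM in challenged knockout and 6628, 6982 and 7477 CPM in challenged wild-type libraries, without overlap. By complex, 19 members of complex I, 3 of complex II, 6 of complex III, 9 of complex IV and 13 of complex V were lower. Short transcripts in general were lower here too: 41.8% of the 784 other genes under 1 kb were lower. With the length trend removed 19 of the 79 nuclear members were lower and 6 higher, with a median of -0.08. Over all 16694 tested genes that setting gave 4006 lower and 4026 higher.

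Of these 54 calls, 21 passed under every alternative. Ndufs5 had 21.5, 19.2 and 16.6 CPM in challenged knockout and 26.3, 33.4 and 34.6 CPM in challenged wild-type libraries, the largest deficit among the members (-0.72 ± 0.12, edgeR adjusted p = 0.00016). Uqcrq had 37.7, 31.1 and 34.4 CPM in challenged knockout and 53.8, 48.0 and 55.1 CPM in challenged wild-type libraries (-0.60 ± 0.10, edgeR adjusted p = 0.00012). Cox5a, Atp5b and Sdhb were lower in knockout by log2 differences of -0.50, -0.42 and -0.40. The 4 members that were higher in challenged knockout cells were Cox6a2 (2.69 ± 0.21), Cox6b2 (0.88 ± 0.15), Atp5sl (0.46 ± 0.09) and Cox7a2l (0.17 ± 0.05). Itgad (1.81) and Siglech (4.48) were higher as well, and their part in the Cox6a2 value was not tested. The challenged libraries of both genotypes also enter the challenge comparisons above, so the values are not independent.

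The difference between the challenge responses, knockout minus wild-type, was tested directly as an interaction. In it 37 nuclear members were lower and 4 higher, when 18.5% of all tested genes were lower and 16.7% higher, 35.2% in all, and the median was -0.29. Single libraries mattered here: without challenged wild-type replicate 3 the number lower was 20, without unchallenged wild-type replicates 2 or 3 it was 21 or 23, without unchallenged knockout replicates 3 or 4 it was 21 or 22, and without challenged knockout replicate 3 it was 23. With upper-quartile scaling 18 were lower and 5 higher. By complex, 14 members of complex I, 2 of complex II, 2 of complex III, 9 of complex IV and 10 of complex V were lower. The largest shortfalls of the knockout response were those of Ndufs5 (-0.77 ± 0.17), Uqcrq (-0.66 ± 0.14), Cox6a1 (-0.60 ± 0.20) and Cox7a2 (-0.60 ± 0.12). Cox6a2 (2.46 ± 0.27), Cox6b2 (0.58), Atp5sl (0.55) and Ndufs1 (0.22) were higher in the interaction. Their responses were -0.39, -0.68, -0.05 and 0.09 in knockout and -2.85, -1.26, -0.60 and -0.13 in wild-type cells. Short transcripts in general were lower here as well. Of the 784 other genes under 1 kb 33.7% were lower, against 48.9% of the 45 members of that length. Between 1 and 2 kb 29.2% of the 2271 other genes were lower, against 52% of the 25 members. With the length trend removed 12 of the 79 nuclear members were lower and 5 higher. Over all 16694 tested genes that setting gave 3013 lower and 2751 higher. The calls of Ndufb9, Ndufs5, Sdhb, Uqcrq, Cox4i1, Cox5b, Cox6b1, Cox7a2, Atp5b, Cox6a2 and Atp5sl passed under every alternative.

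The 4 groups also differed in sex-linked transcripts, so for all 92 members effects of sex and of group cannot be told apart. Of the members, Ndufa1, Ndufb11 and Cox7b are X-linked. Xist, the transcript of the inactive X chromosome, averaged 738 CPM in challenged and 0.72 CPM in unchallenged knockout libraries, and 1396 CPM in challenged and 1617 CPM in unchallenged wild-type libraries. Y-linked Ddx3y averaged 55.4, 107, 0.06 and 11.4 CPM in challenged knockout, unchallenged knockout, challenged wild-type and unchallenged wild-type libraries. Ndufa1, which anchors the proximal membrane arm of complex I, and Ndufb11, a distal subunit, were called in no comparison. Cox7b rose after the challenge in knockout (0.27) and wild-type cells (0.59), and it was lower in challenged knockout than in challenged wild-type cells (-0.22) and in the interaction (-0.32). The part of the sex-linked difference in the values of Cox7b and of the other members was not tested. Without challenged knockout replicate 3 and unchallenged wild-type replicate 4, which stood apart in these transcripts, 13 nuclear members rose in knockout cells, 33 were lower in challenged knockout than in challenged wild-type cells, and 19 were lower in the interaction.

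Upstream sequence was compared among the members that fell short most in the interaction. Promoter windows from RefSeq (GRCm38.p6, 250 bases before to 50 bases after a transcript start) matched 67 of the 79 nuclear members. The strings sought, on both strands, were CGCATGCG, core of the site of nuclear respiratory factor NRF1, CCGGAAGT, of ETS factors such as GABP, and AAGATGGCG, of YY1, all 3 known regulators of respiratory chain genes. None of the strings contains another. The first was in 13.4% of matched members and 2.07% of the 27025 genes in the table, the second in 7.46% of members and 4.31% of genes, and the third in 11.9% of members and 1.64% of genes. The 250 bases upstream of the called member with the largest shortfall in each of complexes I, II, IV and V are shown. Stretches with and without a string can so be set side by side, and capitals mark CGCATGCG.

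Ndufs5, chr4:123718187-123718436, minus strand: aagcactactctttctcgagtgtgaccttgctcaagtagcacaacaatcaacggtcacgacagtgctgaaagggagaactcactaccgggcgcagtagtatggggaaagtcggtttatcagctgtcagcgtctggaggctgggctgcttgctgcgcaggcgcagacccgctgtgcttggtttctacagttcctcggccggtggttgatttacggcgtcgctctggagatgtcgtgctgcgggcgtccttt
Sdhb, chr4:140961021-140961270, plus strand: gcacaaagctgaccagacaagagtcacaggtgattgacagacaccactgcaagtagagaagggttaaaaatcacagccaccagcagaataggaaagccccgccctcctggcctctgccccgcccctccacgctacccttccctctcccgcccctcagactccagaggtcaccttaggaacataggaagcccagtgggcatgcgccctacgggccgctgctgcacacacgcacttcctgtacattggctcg
Cox6a1, chr5:115348959-115349208, minus strand: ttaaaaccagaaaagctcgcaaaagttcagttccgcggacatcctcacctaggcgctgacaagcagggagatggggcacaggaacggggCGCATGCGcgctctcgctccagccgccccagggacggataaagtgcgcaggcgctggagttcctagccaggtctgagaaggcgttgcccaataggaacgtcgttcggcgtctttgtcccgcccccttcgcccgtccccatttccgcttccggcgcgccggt
Atp5k, chr5:108434400-108434649, minus strand: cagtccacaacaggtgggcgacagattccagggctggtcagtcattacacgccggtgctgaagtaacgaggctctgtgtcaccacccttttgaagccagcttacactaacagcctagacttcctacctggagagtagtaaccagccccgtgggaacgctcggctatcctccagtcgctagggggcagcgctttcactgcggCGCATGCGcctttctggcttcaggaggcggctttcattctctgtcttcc

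The 250 upstream bases of Cox6a1 and Atp5k hold the NRF1 string and those of Ndufs5 and Sdhb hold none of the 3. The 50 bases after the start, which the percentages include, are not shown and were not searched gene by gene. A match is a description of the window and no measure of binding.

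The 13 protein-coding genes of mitochondrial DNA were called in none of the comparisons. For the challenge in wild-type cells 0 of 13 had an unadjusted p under 0.05, in knockout cells 2 (mt-Co1 and mt-Cytb), and in the genotype comparisons and the interaction 0, and DESeq2 called 0 in each. Their median log2 fold change was -0.13 for the challenge in wild-type and 0.46 in knockout cells, -0.35 for unchallenged and 0.26 for challenged knockout against wild-type, and 0.59 in the interaction. These medians moved with single libraries left out, and their sign turned in the wild-type challenge and between the challenged genotypes. In the wild-type challenge the median was 0.12 without challenged wild-type replicate 3, -0.29 without challenged replicate 1, and -0.05, -0.24 and 0.0038 without unchallenged wild-type replicates 2, 3 and 4. In the knockout challenge it was 0.26 without challenged knockout replicate 3 and 0.69 without replicate 1. For the unchallenged genotypes it was -0.19 without unchallenged knockout replicate 4 and -0.41 without replicate 2. For the challenged genotypes it was -0.06 without challenged knockout replicate 3 and 0.50 without replicate 1, and 0.02 without challenged wild-type replicate 3 and 0.49 without replicate 1. In the interaction it was 0.24 without challenged knockout replicate 3 and 0.83 without replicate 1. It was 0.38 without unchallenged knockout replicate 4 and 0.39 without challenged wild-type replicate 3. Summed over the 13, the level was 13861, 19133 and 25176 CPM in challenged and 15058, 15126 and 11652 CPM in unchallenged knockout libraries, and 21255, 17217 and 13395 CPM in challenged and 18159, 15535 and 19136 CPM in unchallenged wild-type libraries. All groups overlapped with their counterparts except that unchallenged knockout lay below unchallenged wild-type. In challenged knockout, unchallenged knockout and challenged wild-type groups the library with the highest nuclear sum had the lowest mitochondrial sum, and that library also had the highest short transcripts. In unchallenged wild-type libraries replicate 4 had both the highest nuclear and the highest mitochondrial sum, and replicate 3 the highest short transcripts. The part of this in the results was not tested.

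The spread was large for each mitochondrial gene. mt-Co1, the catalytic subunit of complex IV, had 6920, 8875 and 11967 CPM in challenged and 6837, 6913 and 5650 CPM in unchallenged knockout libraries, without overlap by a narrow margin (0.52 ± 0.19, edgeR adjusted p = 0.061). In wild-type cells mt-Co1 had 10142, 8588 and 6981 CPM in challenged and 8303, 7497 and 8926 CPM in unchallenged libraries, which overlapped (0.06 ± 0.19). mt-Cytb, the haem-carrying subunit of complex III, gave 0.46 ± 0.19 in knockout and -0.01 ± 0.19 in wild-type cells. The membrane subunits of complex I, mt-Nd1, mt-Nd2, mt-Nd4, mt-Nd5 and mt-Nd6, had log2 fold changes of 0.53, 0.63, 0.45, 0.24 and 0.39 in knockout and of -0.07, 0.13, -0.14, -0.40 and -0.43 in wild-type cells, none of which passed. The ATP synthase subunit mt-Atp8 gave 0.73 ± 0.65 in knockout and 0.25 ± 0.65 in wild-type cells.

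Several mitochondrial genes share their reads with copies of mitochondrial DNA on nuclear chromosome 1, and mt-Co1 and mt-Co2 also on chromosome 2. Counts for the member and its near-identical copies pooled lay on the copies to 98.5% for mt-Co2, 96.3% for mt-Co3, 85.6% for mt-Atp6, 71.5% for mt-Nd4l, 52.3% for mt-Nd3 and 10.3% for mt-Co1. The stretches below, from GENCODE vM21 transcripts on GRCm38, show how alike they are: mt-Co2 and its copy Gm28661 had 0 differences over 681 bases, and mt-Nd3 and its copy Gm28438 had 1 over 345 bases, T3C counted from the first base of mt-Nd3, in capitals.

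mt-Co2, chrM:7323-7382, plus strand: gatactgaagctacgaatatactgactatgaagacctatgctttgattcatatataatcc
Gm28661, chr1:24615196-24615255, minus strand: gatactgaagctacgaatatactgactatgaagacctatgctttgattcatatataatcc
mt-Nd3, chrM:9459-9518, plus strand: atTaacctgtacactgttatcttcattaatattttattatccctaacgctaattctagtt
Gm28438, chr1:24613060-24613119, minus strand: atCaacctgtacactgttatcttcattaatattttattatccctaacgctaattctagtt

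mt-Co3, a core subunit of complex IV, shows the effect on single libraries. Its own row held 114, 120 and 142 CPM in challenged and 88.1, 118 and 0.147 CPM in unchallenged knockout libraries, and 113, 150 and 0.141 CPM in challenged and 117, 138 and 226 CPM in unchallenged wild-type libraries. Together with its copy Gm28437 the level was 2184, 3420 and 4643 CPM in challenged and 2670, 2715 and 1937 CPM in unchallenged knockout libraries, and 3670, 3108 and 1911 CPM in challenged and 3148, 2748 and 3429 CPM in unchallenged wild-type libraries. The own row thus lay near 0 in 1 library of each of 2 groups where the sum did not. Counted with copies, the 13 genes took 3.04% of all counts in challenged and 2.15% in unchallenged knockout, and 2.52% in challenged and 2.73% in unchallenged wild-type libraries, and still no member was called.

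**Figure D5:**
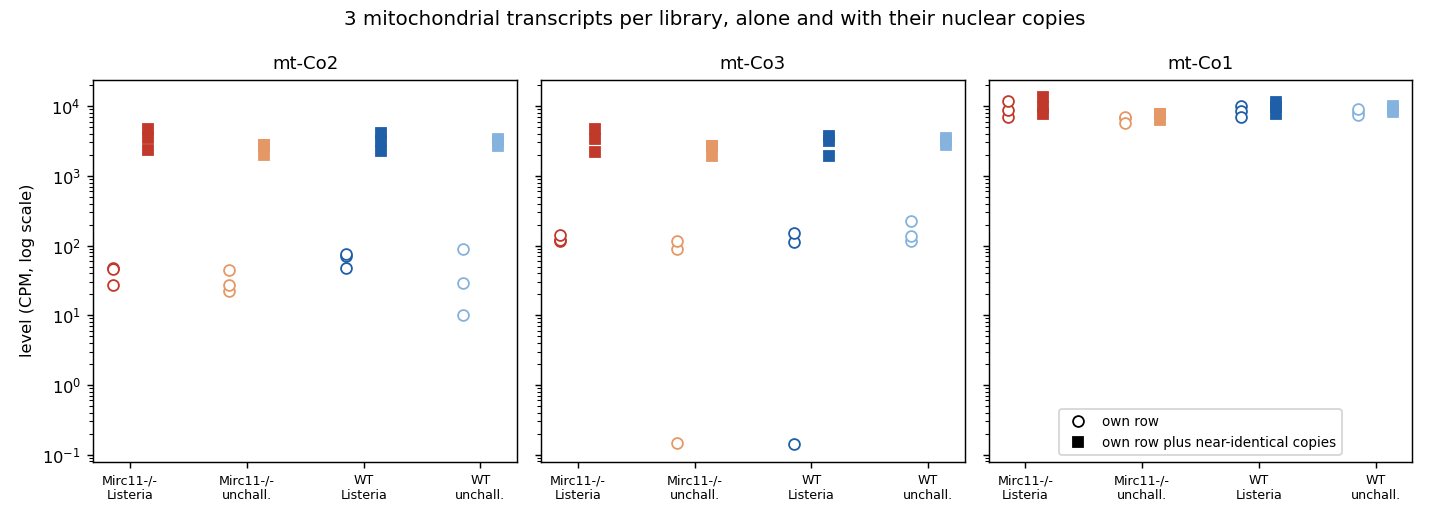
Levels in CPM (log axis) of mt-Co2, mt-Co3 and mt-Co1 in each library, from the gene's own row (open circles) and with its near-identical copies added (filled squares), for the 4 groups. The own rows of mt-Co2 and mt-Co3 lie far below the sums, and 2 libraries have mt-Co3 at 0.147 and 0.141 CPM, while for mt-Co1 both sets of points nearly coincide.

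The mitochondrial ribosomal RNAs were tested as well. In unchallenged knockout against unchallenged wild-type cells mt-Rnr1 was lower by a log2 difference of -1.10 and mt-Rnr2 by -1.18, both of them called, and they averaged 248 and 542 CPM in unchallenged knockout and 529 and 1227 CPM in unchallenged wild-type libraries. Neither was called in the other comparisons, and whether they differed from the mitochondrial messengers, whose median there was -0.35, was not tested. Libraries were made from polyadenylated RNA, in which ribosomal RNA is only partly retained.

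Among other genes of the pathway, the counts that follow stand against 32.4% of all tested genes that rose and 30.9% that fell in wild-type cells, and 15.6% and 11.5% in knockout cells. Of 78 mitochondrial ribosomal proteins, which translate the mitochondrial messengers, 63 rose and 6 fell in wild-type cells (median 0.49). In knockout cells 30 of them rose and 1 fell. In challenged knockout against challenged wild-type cells 52 were lower and 1 higher, when 25.9% of all tested genes were lower and 22.7% higher. Of 17 genes for cytochrome c, the cytochrome c1 subunit of complex III, coenzyme Q synthesis and enzymes that feed electrons to coenzyme Q, 10 rose and 2 fell in wild-type cells. Cytochrome c itself, Cycs, rose by 1.48 in wild-type and by 0.73 in knockout cells, and Coq4, of coenzyme Q synthesis, by 1.2 in wild-type cells. Of 21 complex IV assembly factors 11 rose and 3 fell in wild-type cells, led by Cmc2 (1.26), Sco1 (1.22), a copper chaperone, and Cox17 (0.76), which hands copper to it, with Cmc1 lower (-0.79). Assembly factors of complex I (6 of 15 up, 3 down), of complexes II and III (4 of 10 up, 1 down) and of complex V (2 of 5 up, 1 down) had members in both directions.

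Further up the pathway, 8 of 18 tricarboxylic acid cycle and pyruvate dehydrogenase genes rose and 1 fell after the challenge in wild-type cells, Mdh2 by 0.73 and Cs, citrate synthase, by 0.52. Among carriers 6 of 10 rose and 1 fell, with the ADP/ATP translocator Slc25a5 at 0.88 in wild-type and 0.50 in knockout cells. Of 28 genes for mitochondrial DNA maintenance, transcription and RNA processing 10 rose and 7 fell, shares near those of all tested genes. Of the 9 tested regulators of mitochondrial biogenesis Myc rose by 1.16, Pprc1 by 0.45 and Gabpb1 by 0.36 in wild-type cells, Ppargc1a fell by 0.85, and Nrf1 (-0.03), Gabpa (-0.08) and Yy1 (0.10) did not pass. In knockout cells Myc rose by 0.56 after the challenge.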

How the data were processed

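The authors deposited 1 table of unnormalized counts of reads for each gene in every library. Polyadenylated RNA from a Trizol extraction went into Illumina TruSeq RNA libraries, per the labels' protocols. The submitters' processing notes list GRCm38, RSEM 1.3.0, Bowtie2 2.2.8 and Trim Galore 0.4.1. Values were whole numbers, although RSEM gives estimated counts; rounding, annotation release and strand setting are unstated in the sources used here.

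The members, lists and named genes were chosen with earlier results of these data known. Named were core subunits, isoform sets, X-linked and mitochondrial members, up to 3 members per complex and direction with the smallest p, members called in the interaction, and up to 3 genes per direction of other lists. Counts were filtered with filterByExpr (16694 genes kept), scaled by TMM and fitted over all 12 libraries with a term per group in edgeR 4.0.16 (R 4.3.3), with its quasi-likelihood F test and robust dispersions. Within each of 5 contrasts the Benjamini-Hochberg adjustment covered every tested gene, with calls at an adjusted p below 0.05. Every adjusted p given comes from that test. Standard errors follow from the log2 fold change and its F statistic. The steps were tested on simulated data. DESeq2 1.42.0 was an alternative, as were other scalings, no filter, a replicate block, 2-group fits and leaving out each library; summed copies, a length correction and leaving out 2 libraries were added after seeing the data. Near-identical copies were found with blastn 2.17.0 (at least 95% identity over 100 bases and 50% of the shorter transcript). Transcript lengths are those of principal GENCODE vM21 transcripts. Counts carry no molecular identifiers, so library totals of 17624530 to 23665679 limit counting error only. Figures used matplotlib 3.10.9.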

Additional observations from a re-analysis of the deposited data

Results flagged for a closer look

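The response to the challenge differed between knockout and wild-type cells for 41 nuclear members, by edgeR's test of the interaction, which is the reason each is listed. All values are log2 differences, knockout response minus wild-type response. In complex I they were -0.40 for Ndufa12, -0.28 for Ndufa13, -0.40 for Ndufa3, -0.42 for Ndufa5, -0.44 for Ndufa7, -0.30 for Ndufa9, -0.43 for Ndufab1, -0.44 for Ndufb6, -0.41 for Ndufb8, -0.56 for Ndufb9, -0.43 for Ndufc1, 0.22 for Ndufs1, -0.36 for Ndufs4, -0.77 for Ndufs5 and -0.35 for Ndufv2. In complex II they were -0.39 for Sdhb and -0.27 for Sdhd, and in complex III -0.38 for Uqcr10 and -0.66 for Uqcrq. In complex IV they were -0.41 for Cox4i1, -0.39 for Cox5a, -0.49 for Cox5b, -0.60 for Cox6a1, 2.46 for Cox6a2, -0.51 for Cox6b1, 0.58 for Cox6b2, -0.29 for Cox6c, -0.60 for Cox7a2, -0.32 for Cox7b and -0.29 for Cox7c. In complex V they were -0.42 for Atp5b, -0.21 for Atp5c1, -0.29 for Atp5f1, -0.39 for Atp5g1, -0.25 for Atp5h, -0.34 for Atp5j, -0.43 for Atp5j2, -0.46 for Atp5k, -0.24 for Atp5l, -0.40 for Atp5o and 0.55 for Atp5sl. Members that were called in 1 genotype but are not listed were not shown to respond differently.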

How the results depend on the processing

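Of the wild-type calls 37 of 66 passed in the same direction under all 22 alternatives, of the knockout calls 8 of 21, of the challenged genotype calls 21 of 54, and of the interaction calls 11 of 41 under 21 alternatives. Leaving out 1 library in turn gave 51 to 64 nuclear members up and 4 to 6 down in wild-type, with 0 to 1 mitochondrial member up and 0 to 1 down. It gave 11 to 20 up and 1 to 2 down in knockout, with 0 to 2 mitochondrial members up. It gave 32 to 55 down in challenged knockout against challenged wild-type, and 2 to 4 up and 20 to 41 down in the interaction. Upper-quartile scaling, which moved the median of all genes by -0.11 in the wild-type challenge, gave 13 up in knockout and 18 down in the interaction. Without a count filter 2 were up in the interaction, and likewise 2 with DESeq2. With 2-group fits 12 were up in knockout, 33 down in challenged knockout, and in unchallenged knockout 1 nuclear member was up and 1 mitochondrial down. Without challenged knockout replicate 3 and unchallenged wild-type replicate 4 there were 13 up in knockout, 33 down in challenged knockout, and 2 up and 19 down in the interaction. Replicate numbers did not pair the libraries: residuals of same-numbered libraries correlated at 0.016 and 0.144 in wild-type, 0.249 and 0.024 in knockout, 0.12, -0.048 and 0.006 between the unchallenged and -0.317, 0.058 and -0.148 between the challenged genotypes. With the replicate block 10 were up in knockout and 2 in the interaction. With the length trend removed, 35 nuclear members were up, 13 down and 1 mitochondrial down in wild-type, 11 up and 7 down in knockout, 19 down and 1 mitochondrial up in challenged knockout, and 12 down in the interaction. Medians of the mitochondrial members, none of them called in the main fit, moved with single libraries left out. Their sign turned in the wild-type challenge and between the challenged genotypes. It held in the knockout challenge, between the unchallenged genotypes and in the interaction. Among members called in the main fit or in the very alternative compared with it, only the length correction turned signs, and the cause was not tested. In wild-type it gave -0.35 for Ndufa1, -0.0823 for Ndufa11, -0.24 for Ndufa3, -0.15 for Ndufa4, -0.0912 for Ndufa6, -0.0149 for Ndufa7, -0.30 for Ndufb10, -0.24 for Ndufb11, -0.0191 for Ndufb5, -0.13 for Ndufb7, -0.025 for Ndufs3, -0.20 for Uqcrh, -0.018 for Cox6c, -0.0175 for Cox7c, -0.0031 for Cox8a, -0.16 for Atp5e, -0.17 for Atp5h and -0.13 for Atp5l. In challenged knockout against challenged wild-type it gave 0.19 for Ndufa4, 0.17 for Ndufb10, 0.0078 for Cox6c and 0.049 for Atp5h, and in the interaction 0.0197 for Atp5l. Ndufa1, Ndufa3, Ndufb10 and Ndufb11 in wild-type, and Ndufa4 and Ndufb10 in the challenged genotypes, were not called in the main fit.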
